A study of Mus musculus with 24 samples.

Results

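The acute phase genes described here are 9 of the 55341 genes in the count table: lipocalin 2 (Lcn2), the orosomucoids Orm1, Orm2 and Orm3, the serum amyloid A genes Saa1, Saa2 and Saa3, haptoglobin (Hp) and ceruloplasmin (Cp). They were listed by gene symbol, and the list was made with earlier results of these data known. RNA came from 3134 cells, a mouse mammary adenocarcinoma line. All cells, controls included, carried a hairpin against NIPBL that IPTG switches on, plus a piggyBac construct: an empty vector (EV), wild-type NIPBL (WT), or NIPBL mutants labelled C1, C2 and C1-C2, whose changes the labels do not spell out. Growth for 3 days in serum stripped with charcoal preceded treatment, and IPTG, where used, was at 1 mM. They were then given ethanol or 100 nM dexamethasone, a synthetic glucocorticoid, for 2 hours. The 6 cell states were EV without IPTG and EV, WT, C1, C2 and C1-C2 with IPTG. Each state was measured after ethanol and after dexamethasone in 2 libraries, giving 12 groups and 24 libraries.

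Acute phase proteins are secreted proteins whose blood levels change in inflammation, and the liver is their best known source. Their genes respond to interleukin 6 through STAT3, to NF-kB and to C/EBP transcription factors, and several are classical targets of the ligand-bound glucocorticoid receptor. NIPBL and its partner MAU2 form the loader of cohesin, the ring complex that folds chromatin into loops. Lcn2 is also made by many epithelial tumour cells and by neutrophils.

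Library totals were 32.5 to 42.7 M counts in ethanol and 45.0 to 72.9 M in dexamethasone. Levels are given in CPM, counts scaled to a common library size that was corrected by TMM factors. Nipbl was at 151 to 186 CPM without IPTG and at 48.0 to 73.3 CPM with it. The ethanol and dexamethasone libraries carry names from separate number series, so preparation and hormone cannot be told apart. Effects of IPTG, the hairpin and loss of NIPBL cannot be told apart either. Replicate 2 of C1-C2 in ethanol has an ethanol title and a dexamethasone treatment label and was grouped by its title. The design text calls the samples biological replicates without saying what was separate, and p-values cover the spread between these libraries alone. Replicate 1 of WT in dexamethasone stood apart from its partner on the second and the next principal component.

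Of 6 fibroblast or mesenchymal markers, Vim was at 3328 to 4458 CPM, Col1a2 at 1387 to 1845, Pdgfrb at 107 to 236 and Pdgfra at 26.6 to 54.2 CPM. Col1a1 was at 0.400 to 2.05 CPM, and Dcn had 1 count in all libraries together. Of 8 epithelial markers, 7 stayed under 1 CPM in all libraries, and Krt14 was at 13.4 to 21.8 CPM. All 8 neutrophil markers stayed under 1 CPM, with a sum of 0 to 0.138 CPM in ethanol and 0.0906 to 0.323 CPM in dexamethasone. All 7 hepatocyte markers also stayed under 1 CPM, with sums of at most 0.419 CPM. Of 6 macrophage markers, 4 stayed under 1 CPM, Cd68 was at 7.52 to 11.4 CPM and Lyz2 at 1.197 to 3.34 CPM, and their sum was 9.32 to 12.96 CPM in ethanol and 10.7 to 14.6 CPM in dexamethasone. The part of these sums in the results was not tested.

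Promoter sequences are shown for Lcn2, Orm3 and Orm2, because these genes moved with dexamethasone. The promoter sequences of Orm3 and Orm2 are also near copies, while the genes differed in fold. The sequences are the 250 bases before the RefSeq start site, from build GRCm38.p6, written 5′ to 3′ along the gene. The table held such windows for 7 of the 9 members, all but Orm1 and Hp. Capitals mark AGAACA, a core of the element bound by the glucocorticoid receptor, and TTGCNNAA, a core of the element bound by C/EBP factors. Each was searched on both strands. The windows were chr2:32387740-32387989, minus strand, for Lcn2, chr4:63355908-63356157, plus strand, for Orm3 and chr4:63362199-63362448, plus strand, for Orm2.
Lcn2: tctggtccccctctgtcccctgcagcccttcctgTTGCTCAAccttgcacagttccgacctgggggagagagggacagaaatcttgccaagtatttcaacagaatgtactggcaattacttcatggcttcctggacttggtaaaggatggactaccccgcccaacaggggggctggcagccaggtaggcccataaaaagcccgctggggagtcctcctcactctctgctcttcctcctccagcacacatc
Orm3: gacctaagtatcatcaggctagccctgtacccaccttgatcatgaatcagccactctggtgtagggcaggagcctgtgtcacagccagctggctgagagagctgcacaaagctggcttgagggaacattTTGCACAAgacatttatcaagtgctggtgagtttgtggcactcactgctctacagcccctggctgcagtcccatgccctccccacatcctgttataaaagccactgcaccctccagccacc
Orm2: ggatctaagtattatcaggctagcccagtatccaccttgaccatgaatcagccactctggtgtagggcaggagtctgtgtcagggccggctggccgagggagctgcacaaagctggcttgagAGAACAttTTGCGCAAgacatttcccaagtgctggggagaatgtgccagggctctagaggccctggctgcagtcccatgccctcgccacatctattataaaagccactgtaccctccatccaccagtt

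TTGCNNAA matched in the windows of all 7 members, against 9.56% of 32851 promoters of the same length. It began 216 bases upstream of the start in Lcn2, 121 in Orm3, 120 in Orm2, 182 in Saa1, 183 in Saa2, 99 in Saa3 and 70 in Cp, which has another start without a match. AGAACA matched 128 bases upstream in Orm2, where it does not overlap the TTGCNNAA match, and 110 bases upstream at the other start of Cp. AGAACA was in 16.1% of all promoters and was not in the Lcn2 and Orm3 windows. Aligned over 245 bases, the Orm2 and Orm3 windows shared 218 bases, or 89.0%. The Saa1 and Saa2 windows shared 238 of 249 aligned bases, or 95.6%. Matches in such near copies are not independent, and Saa1, Saa2 and Saa3 had too few counts to be tested. The longer glucocorticoid response element, AGAACA and TGTTCT with 3 bases between them, is in 0.0091% of promoters and was in none of the 7, and its relaxed form, GNACA and TGTNC with 3 bases between, is in 0.387% and was in none. TATAAA matched 33 bases upstream in Orm2, 29 in Orm3 and 25 in Cp, and in 12.4% of all promoters. A STAT core, TTC and GAA with 3 bases between, matched in none and in 7.02% of all promoters. An NF-kB core, GGGA and CC with 4 bases between, matched in Cp and in 17.6% of all promoters. These motifs were also searched on both strands. A match describes these letters and shows no binding.

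With dexamethasone the counts of Lcn2 and all 3 orosomucoid genes were higher in each of the 6 cell states. The folds were 37.2 to 77.6 for Lcn2, 16.5 to 24.5 for Orm3, 12.8 to 20.9 for Orm1 and 3.45 to 6.32 for Orm2. The orosomucoid genes share sequence, so their 3 responses may not be separate. Cp was at 1.33 to 1.54 times its ethanol level and was not called. Saa1, Saa2, Saa3 and Hp had too few counts to be tested. A call required a Benjamini-Hochberg adjusted p below 0.05, over all 16934 genes tested, in the quasi-likelihood test of edgeR. Thus 4 of the 9 members were called higher in every state, 5 were tested and none was lower. The share of all tested genes called higher was 19.8% in EV without IPTG, 17.1% in EV with IPTG, 14.8% in WT, 17% in the C1 state, 16.8% in the C2 state and 16.4% for C1-C2. Each of the 5 tested members had at least 13 counts in every library. In these bulk libraries, fewer expressing cells and less RNA per cell cannot be told apart.

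Lcn2, which encodes a secreted protein that binds iron-carrying siderophores, lies on minus strand chr2:32384633-32388252 (mm10). Its level after ethanol was 0.370 to 1.47 CPM over the 12 libraries, with a median of 0.763, and after dexamethasone it was 24.1 to 51.4 CPM, with a median of 36.4. The lowest dexamethasone library was far above the highest ethanol library. In EV without IPTG the ethanol libraries were at 0.444 and 0.846 CPM and the dexamethasone libraries at 47.0 and 50.2 CPM. That is a 77.6-fold difference (95% interval 45.3 to 133, edgeR adjusted p = 1.06e-08). In EV with IPTG the values were 0.987 and 1.47 CPM against 38.97 and 51.4 CPM, a 37.2-fold difference (interval 22.8 to 60.8, edgeR adjusted p = 3.48e-08). The ethanol values rest on 13 to 49 counts per library, and the 2 ethanol libraries of a state differed by up to 2.58 times, in C2.

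The other states lay between those folds: 43.3 in WT, 56.6 for C1, 46.8 for C2 and 44.6 for C1-C2. Without replicate 1 of C2 in ethanol, the C2 fold became 85.6. The log2 response of Lcn2 was 5.44 in WT and 5.68 without replicate 1 of WT in dexamethasone, and 5.48 in C1-C2 and 5.57 without the ethanol library whose labels disagree. Ranked by fold among the genes called higher, Lcn2 was 16th of 3359 in EV without IPTG and ranked lowest in WT, at position 40 of 2510. None of the 50-base stretches of its exons occurs in another annotated gene.

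**Figure D1:**
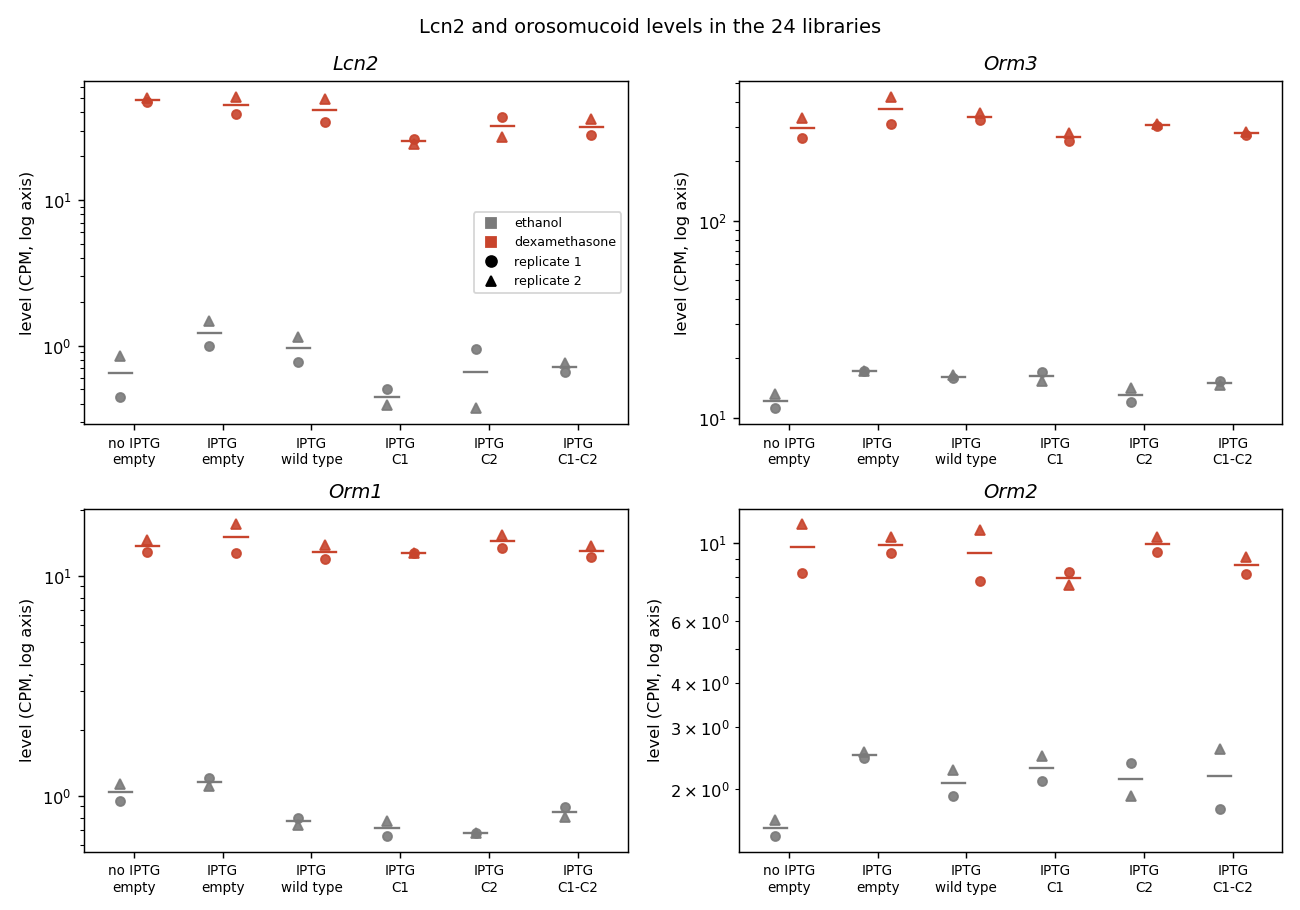
Level of Lcn2, Orm3, Orm1 and Orm2 in CPM on log axes in each library by cell state; grey is ethanol, red is dexamethasone, circles are replicate 1, triangles replicate 2 and lines the mean of the 2 libraries. The dexamethasone points lie above the ethanol points in every panel, and Lcn2 in dexamethasone is lowest in C1.

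The orosomucoids are alpha-1-acid glycoproteins, plasma proteins of the lipocalin family that carry lipophilic ligands. Their genes stand side by side on the plus strand of chromosome 4 (mm10): Orm1 at chr4:63344560-63348163, Orm3 7998 bases on at chr4:63356162-63359511 and Orm2 another 2937 bases on at chr4:63362449-63365878. Of the 50-base stretches of Orm1 exons, 20.4% also occur in Orm2, so the split of reads between these genes is uncertain. Orm3 shares 3.59% of its stretches with Orm2 and 2.21% with Orm1. Its median in dexamethasone was 304 CPM, against 9.22 CPM for Orm2 and 13.1 CPM for Orm1. How much of the Orm2 and Orm1 counts came from Orm3 reads was not tested. The counting of reads with several alignments is not given in the sources used here.

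Averaged over the 12 libraries of a treatment, Orm3 had the highest level per length among the members. Its mean level was 19.4 CPM per kilobase of exon in ethanol and 399 in dexamethasone, against 11.9 and 17.2 for Cp and 0.296 and 14.3 for Lcn2. In EV without IPTG in ethanol Cp was above Orm3, at 16.3 against 15.7 CPM per kilobase. For Orm3 the libraries ran from 11.2 to 17.4 CPM, with a median of 15.4, in ethanol. In dexamethasone they ran from 255 to 426 CPM, with a median of 304. The ranges were far apart. In EV without IPTG Orm3 was at 11.2 and 13.2 CPM in ethanol and at 262 and 332 CPM in dexamethasone, 24.5-fold higher (interval 19.3 to 31.2, edgeR adjusted p = 1.20e-11). The smallest fold was 16.5, in C1 (interval 13.1 to 20.8).

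Orm1 was at 0.660 to 1.22 CPM in ethanol and 11.95 to 17.2 CPM in dexamethasone. It rose 13.2-fold in EV without IPTG (interval 10.4 to 16.6) and in C2 20.9-fold (interval 16.3 to 26.9). Orm2 was at 1.47 to 2.60 CPM in ethanol and 7.60 to 11.3 CPM in dexamethasone. It rose 6.32-fold in EV without IPTG (interval 4.76 to 8.39) and 3.45-fold in C1 (interval 2.65 to 4.51). Without replicate 1 of WT in dexamethasone the WT log2 responses were 4.44 for Orm3, 4.16 for Orm1 and 2.38 for Orm2. Without the library with disagreeing labels the C1-C2 log2 responses were 4.16 for Orm3, 3.85 for Orm1 and 2.28 for Orm2, and all 6 stayed called. Orm1 and Orm2 had ranges that did not overlap between treatments, and the Orm2 interval lay below the Orm1 interval in each state.

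The makeup of the orosomucoid counts differed between the treatments. Orm3 held 79.8% to 86.0% of the 3 genes' counts in ethanol and 92.3% to 94.3% in dexamethasone. Orm2 held 9.76% to 15.7% in ethanol and 2.27% to 3.15% in dexamethasone. Orm1 was below Orm2 in all 12 ethanol libraries, with count ratios of 0.289 to 0.696, and above it in all 12 dexamethasone libraries, with ratios of 1.27 to 1.68. These shares are descriptions, and their sequence overlap is given above.

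**Figure D2:**
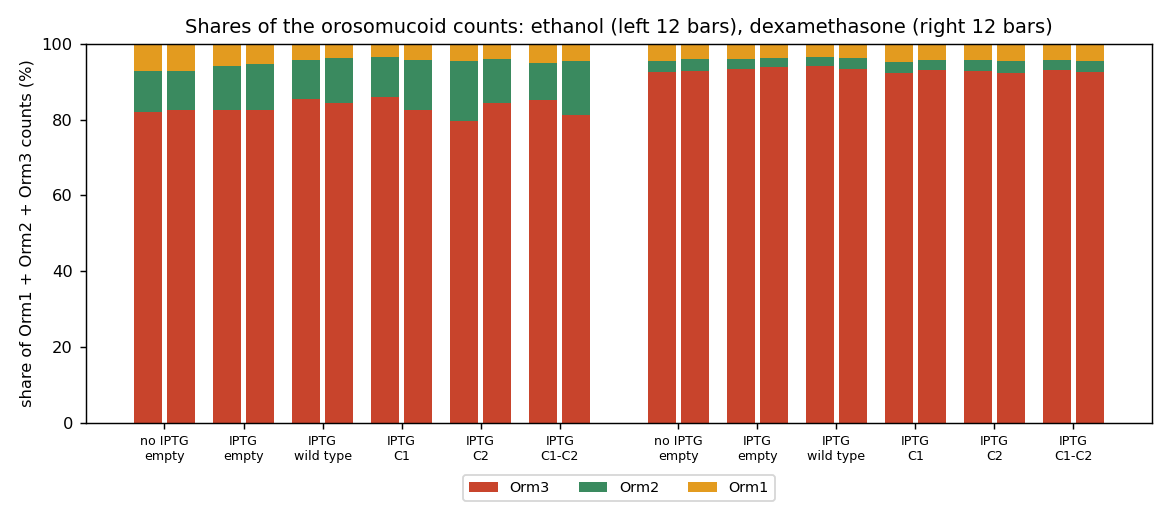
Share of the summed Orm1, Orm2 and Orm3 counts, in percent, held by each gene; each bar is 1 library, 12 in ethanol on the left and 12 in dexamethasone on the right. The Orm3 share is 79.8% to 86.0% in ethanol and 92.3% to 94.3% in dexamethasone.

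**Figure D3:**
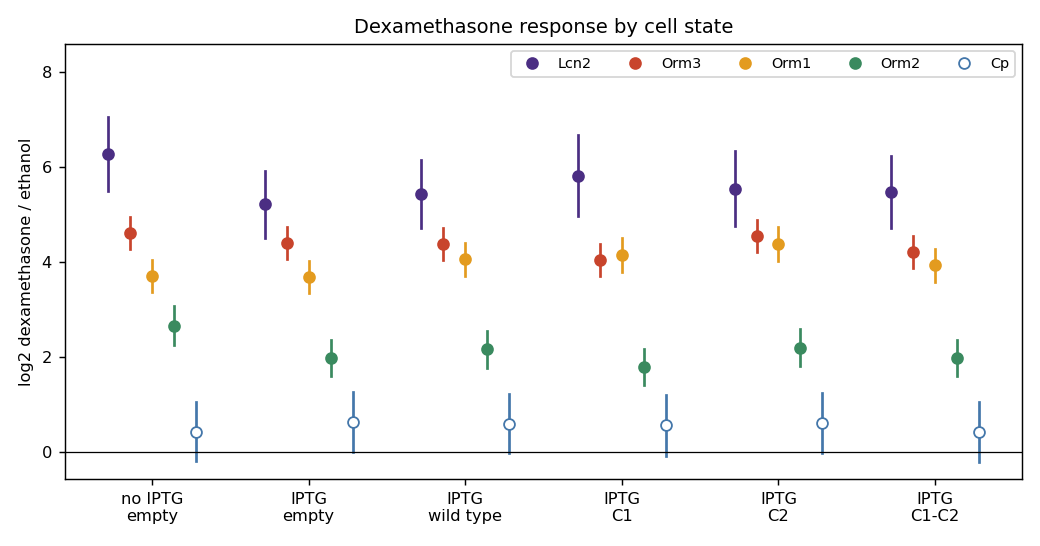
Dexamethasone response as log2 fold change with its 95% interval by cell state for Lcn2, Orm3, Orm1, Orm2 and Cp; filled points passed the adjusted p of 0.05. Lcn2 has the highest point and Cp the lowest in every state.

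Ceruloplasmin is a copper-carrying plasma protein that oxidises ferrous iron. Cp lies at chr3:19957054-20009145 (mm10), plus strand, and Hps3 on the opposite strand overlaps it. Its level was 63.2 to 158 CPM in ethanol, with a median of 112, and 100.1 to 219 CPM in dexamethasone, with a median of 172. The ranges over all libraries overlapped, while within each state other than C2 both dexamethasone libraries were above both ethanol libraries. In EV with IPTG Cp was at 110 and 113 CPM in ethanol and at 165 and 179 CPM in dexamethasone, a 1.54-fold difference (interval 0.995 to 2.39, edgeR adjusted p = 0.126). Over the 6 states the adjusted p ran from 0.126 to 0.327.

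The replicates of Cp lay furthest apart in the C1 and C2 groups. Replicate 1 of C2 was at 120 CPM and replicate 2 at 64.2 CPM in ethanol, and they were at 179 and 102 CPM in dexamethasone. Replicate 1 was 1.35 to 1.87 times replicate 2 in the 4 C1 and C2 groups, and the higher replicate was 1.01 to 1.10 times the lower in the other 8 groups. Fitted on only the libraries compared, Cp was called higher with dexamethasone in 4 states: EV without IPTG (adjusted p = 9.60e-06), EV with IPTG (1.65e-07), WT (2.05e-04) and C1-C2 (8.14e-07). Hps3 was at 26.9 to 31.8 CPM in ethanol and 23.996 to 28.8 CPM in dexamethasone. The strand setting of the counting is not given in the sources used here.

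**Figure D4:**
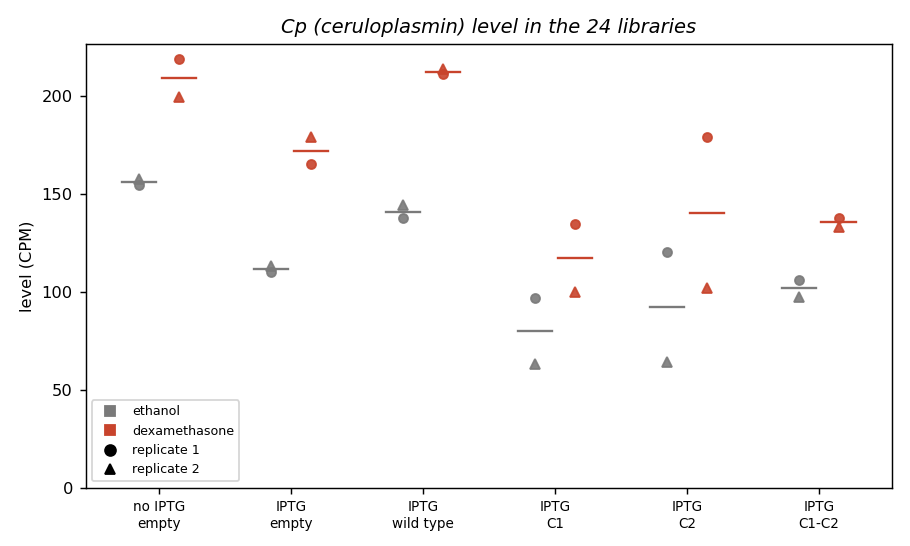
Level of Cp in CPM in each library by cell state; grey is ethanol, red is dexamethasone, circles are replicate 1, triangles replicate 2 and lines the mean of the 2 libraries. The replicates lie far apart in C1 and C2 and close together elsewhere.

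Haptoglobin, encoded by Hp, binds free haemoglobin. Over 12 libraries of each treatment it had 10 counts in ethanol and 83 in dexamethasone, and its highest library was at 0.262 CPM. All 12 dexamethasone libraries had at least 2 Hp counts, against 5 of 12 ethanol libraries with any. Without IPTG, EV cells had 0 and 18 counts, which is at least 4.62-fold higher in dexamethasone when the ethanol group is set to 3 counts. In EV with IPTG the counts were 2 and 16, a ratio per library size of 5.88 (95% exact binomial interval 1.38 to 52.7). In WT they were 5 and 14, a ratio of 2.02 (interval 0.687 to 7.16), so a difference was not detectable at this depth there. These intervals and floors cover counting error only. Hp was called higher without a low-count filter in EV without IPTG and in C1-C2.

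The serum amyloid A genes, which encode lipoprotein-associated acute phase proteins, stand in a cluster on chromosome 7. Saa1 had 0 counts in ethanol and 6 in dexamethasone, and Saa2 had 1 count in all 24 libraries. Saa3 had 10 counts in ethanol and 23 in dexamethasone. Saa3 had 5 and 8 counts in EV without IPTG, a ratio of 1.23 (95% exact binomial interval 0.355 to 4.79). A dexamethasone response of this family was not detectable at this depth. Of the 50-base stretches of Saa2, 29.97% are shared with Saa1.

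The knockdown comparison asked how the members differ when IPTG switches on the hairpin in EV cells. No member was called in either treatment, against 13.4% of all genes in ethanol and 16.9% in dexamethasone in either direction. The closest to the threshold were Orm2 and Orm3 in ethanol, where both libraries with IPTG exceeded both without. Orm2 was at 1.47 and 1.64 CPM without IPTG and 2.46 and 2.55 CPM with it, a 1.62-fold difference (interval 1.16 to 2.26, edgeR adjusted p = 0.0503). Orm3 was at 11.2 and 13.2 CPM against 17.3 and 17.4 CPM, a 1.43-fold difference (interval 1.12 to 1.84, edgeR adjusted p = 0.0573). Across 12 alternatives Orm2 was called in 7 (adjusted p from 0.00444 to 0.292) and Orm3 in 6 (from 0.00283 to 0.363), and DESeq2 called both.

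Lcn2 in ethanol was 1.94-fold higher with IPTG, at 0.987 and 1.47 CPM against 0.444 and 0.846 CPM (interval 0.746 to 5.02, edgeR adjusted p = 0.388). In dexamethasone it was at 38.97 and 51.4 CPM with IPTG and 47.0 and 50.2 CPM without, 0.929 times the level (interval 0.682 to 1.26). These libraries overlapped. Orm3 in dexamethasone was 1.24-fold higher with IPTG (log2 interval 0.03 to 0.58, edgeR adjusted p = 0.127). Without replicate 1 of EV with IPTG, or without replicate 2 of EV without IPTG, in dexamethasone, Orm3 was called.

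Cp was lower with IPTG in both treatments, with no overlap between libraries: 110 and 113 CPM against 154 and 158 CPM in ethanol, and 165 and 179 CPM against 219 and 199 CPM in dexamethasone. The fits gave 0.715 times the level in ethanol (interval 0.461 to 1.11, edgeR adjusted p = 0.332) and 0.823 times in dexamethasone (interval 0.535 to 1.27, edgeR adjusted p = 0.573). With only the libraries compared, Cp was called lower in both (adjusted p = 5.36e-05 and 0.00524).

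The test of the difference between the 2 dexamethasone responses in EV cells called no member, against 0.171% of all genes. The Lcn2 response with IPTG was 0.480 times that without (interval 0.176 to 1.31), and the Orm2 response was 0.624 times (interval 0.417 to 0.932, edgeR adjusted p = 0.855). The Orm3 interval was 0.630 to 1.184 and the Orm1 interval 0.676 to 1.41.

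In cells with the wild-type NIPBL construct, no member was called against EV with IPTG, while 1.16% of all genes were called in ethanol and 4.2% in dexamethasone. Nipbl itself was at 66.5 ± 5.48 CPM (SD, n = 2) in WT and 63.8 ± 1.75 CPM in EV in ethanol, and at 60.6 ± 7.88 and 55.5 ± 1.48 CPM in dexamethasone, so an add-back was not visible in its counts (edgeR adjusted p = 0.894 and 0.509). Whether RNA of the construct is counted under Nipbl is not given in the sources used here. In dexamethasone Lcn2 was at 34.1 and 49.3 CPM in WT and 38.97 and 51.4 CPM in EV, 0.922 times the level (interval 0.677 to 1.26), and a log2 difference of -0.12 became 0.12 without replicate 1 of WT. Cp was at 211 and 213 CPM in WT and 165 and 179 CPM in EV, 1.23-fold (interval 0.803 to 1.90), and was called with only the libraries compared (adjusted p = 0.0498).

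The mutants were compared with wild-type NIPBL in the same treatment. No member was called, against 2% of all genes for C1, 2% for C2 and 0.768% for C1-C2 in ethanol, and 5.33%, 5.17% and 1.41% in dexamethasone. The lowest adjusted p was for Lcn2 in C1 in dexamethasone. Lcn2 was at 26.4 and 24.1 CPM in C1 and 34.1 and 49.3 CPM in WT, 0.607 times the level (interval 0.444 to 0.831, edgeR adjusted p = 0.0676). Over 12 alternatives its adjusted p ran from 0.0495, with a stricter low-count filter, to 0.2996, and it was called in 2. Orm3 was at 255 and 280 CPM against 324 and 350 CPM, 0.793 times (interval 0.654 to 0.961, edgeR adjusted p = 0.154), and Cp at 135 and 100.1 CPM against 211 and 213 CPM, 0.554 times (interval 0.359 to 0.854, edgeR adjusted p = 0.111). For these 3 genes the C1 and WT libraries did not overlap. Without replicate 1 of WT, the library that stood apart, the log2 differences were -0.96 for Lcn2 (adjusted p = 0.0531), -0.39 for Orm3 (0.313) and -0.86 for Cp (0.306). Orm1 was at 12.8 and 12.8 CPM in C1 and 11.95 and 13.8 CPM in WT, 0.993 times (interval 0.842 to 1.17). In ethanol Cp in C1 was at 0.567 times WT (interval 0.364 to 0.884, edgeR adjusted p = 0.2545). Lcn2 in C1 in ethanol was at 0.465 times (interval 0.160 to 1.35, edgeR adjusted p = 0.616) and Orm3 at 1.00 times (interval 0.7885 to 1.28).

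Against EV with IPTG, the mutants had no called member either, with 0.272%, 0.224% and 0.0591% of all genes called in ethanol for C1, C2 and C1-C2 and 0.537%, 0.644% and 0.1% in dexamethasone. Lcn2 in C1 in dexamethasone was 0.560 times EV (interval 0.409 to 0.767, edgeR adjusted p = 0.134). The differences of dexamethasone responses from WT called no member, with at most 0.0118% of all genes called (WT against EV 0.0118%, C1 0.0118%, C2 0.00591%, C1-C2 0%). Over the 21 comparisons without a call in edgeR, 19 of 105 member tests had an unadjusted p under 0.05. The share of all genes at that threshold is not given here. These tests reuse 5 members and the same libraries, so they are not independent, and no conclusion is drawn from their number. DESeq2 called 2 members in the knockdown in ethanol, Orm2 and Orm3, and 1 in C1 against WT in dexamethasone, Cp. Its shares of all genes called are not given here.

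**Figure D5:**
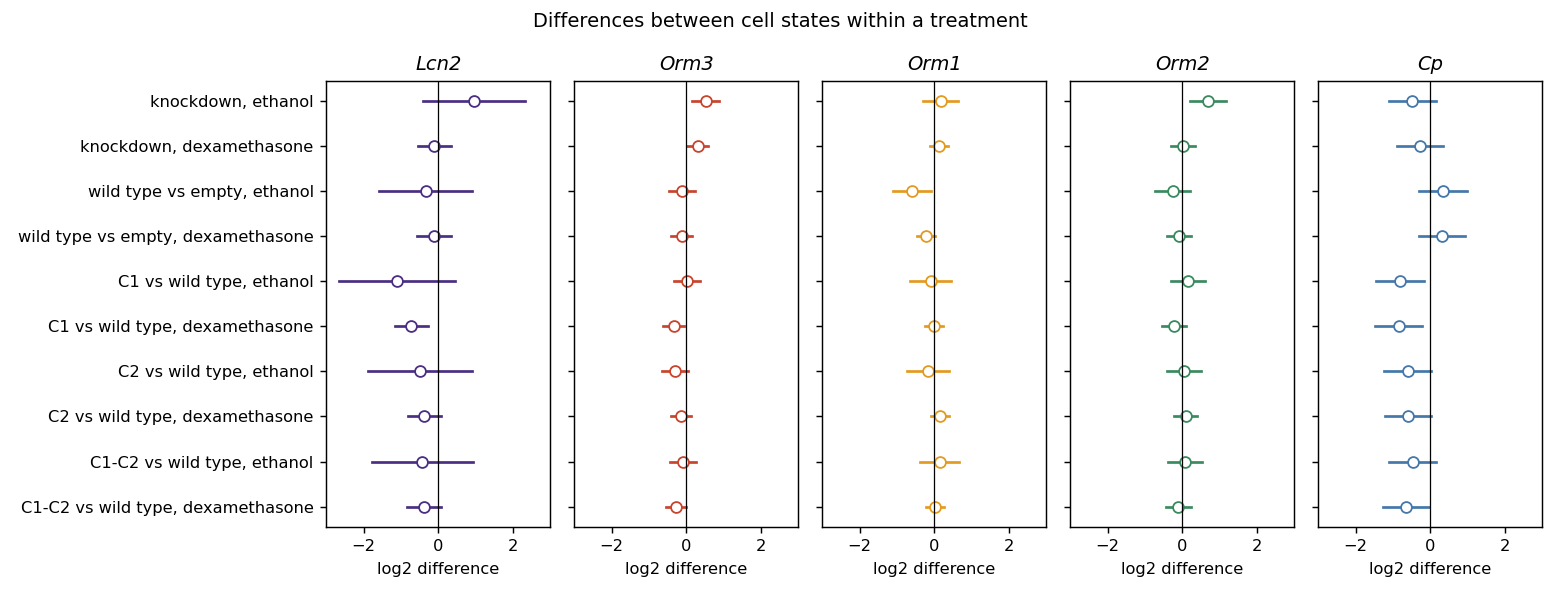
Log2 difference between cell states within a treatment with its 95% interval for Lcn2, Orm3, Orm1, Orm2 and Cp; open points did not pass the adjusted p of 0.05. No point is filled, and the Lcn2 intervals in ethanol are the widest.

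Ordered by mean in dexamethasone, Lcn2 was highest in EV without IPTG (48.6 ± 2.25 CPM, SD, n = 2), then EV with IPTG (45.2 ± 8.78), WT (41.7 ± 10.7), C2 (32.0 ± 6.94), C1-C2 (31.9 ± 5.56) and C1 (25.3 ± 1.61). Neighbours in this order overlapped, apart from C1-C2 and C1. The Orm3 order ran from EV with IPTG (367 ± 83.2 CPM) through WT (337 ± 18.4), C2 (305 ± 6.89), EV without IPTG (297 ± 49.4) and C1-C2 (278 ± 6.37) to C1 (267 ± 17.9), and only WT and C2 were apart among neighbours. Both genes had their lowest mean in C1, as did Orm1 (12.8 CPM, against 12.9 in WT), Orm2 (7.94 CPM) and Cp (117 CPM). Orm1, Orm2 and Cp overlapped there with the next lowest group.

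Over the 12 dexamethasone libraries, log2 CPM of Lcn2 had a Pearson r of 0.827 with Cp, 0.609 with Orm3, 0.617 with Orm2 and 0.432 with Orm1. Orm1 had an r of 0.759 with Orm2. Among 12352 other genes, a number that includes the other tested members, only genes outside the members were ranked. Those most like Lcn2 over these libraries were Emilin1 (r = 0.961), Tspan17 (0.947), Zfp85 (0.945), Cbr2 (0.936) and Casp4 (0.931). These values describe libraries that share 6 cell states, and come with no test. With dexamethasone in EV without IPTG, Emilin1 was 1.04-fold higher and not called (edgeR adjusted p = 0.790), and Zfp85 was 1.34-fold higher and called (0.0472).

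Other acute phase genes were mostly silent: 9 of 31 listed genes were tested. With dexamethasone in EV without IPTG 4 were called higher (19.8% of all genes) and 0 lower (18.2%), with a median log2 change of 0.87 against 0.01 for all tested genes. Mt1, a metal-binding metallothionein, rose 5.62-fold from a mean of 37.1 to 209 CPM. Serpina3n, a secreted protease inhibitor, rose 2.79-fold from 1.28 to 3.57 CPM. In the knockdown in dexamethasone 0 of the 9 were higher (8.36% of all genes) and 3 lower (8.49%): Serpina3n fell 2.49-fold, Cd14, a lipopolysaccharide co-receptor, 1.201-fold and Mt1 1.19-fold (edgeR adjusted p = 2.61e-05, 0.0498 and 0.0146).

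Of 27 listed regulators of the acute phase response 18 were tested. With dexamethasone in EV without IPTG 8 were called higher and 6 lower, against 19.8% and 18.2% of all genes, with a median log2 change of 0.13. Cebpb and Cebpd, which encode C/EBP factors, rose 4.07-fold and 3.54-fold, and Il6ra, the interleukin 6 receptor subunit, rose 3.87-fold. Nfkbia, an inhibitor of NF-kB, rose 3.09-fold, while Socs3, a feedback inhibitor of cytokine signalling, fell 2.06-fold and Nr3c1, the glucocorticoid receptor, fell 1.89-fold. In the knockdown 1 was higher and 5 lower in ethanol, against 7.16% and 6.24% of all genes, and 1 was higher and 8 lower in dexamethasone, against 8.36% and 8.49%.

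In dexamethasone the knockdown lowered Cebpd 1.95-fold, Cebpb 1.91-fold, Il6ra 1.90-fold and Lif, a cytokine of the interleukin 6 family, 1.69-fold. Cebpb was at 575 ± 139 CPM (SD, n = 2) without IPTG and 301 ± 2.74 CPM with it in dexamethasone. The Cebpd response itself differed, with a log2 difference of -0.97 (edgeR adjusted p = 0.0155). The same test gave -1.06 for Lcn2, with an interval of -2.51 to 0.39 (adjusted p = 1). These values stand side by side and their relation was not tested.

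In C1 against WT in dexamethasone 5 of the 18 regulators were lower and 0 higher, against 2.7% and 2.63% of all genes: Nfkbiz 1.45-fold, Il6ra 1.39-fold, Cebpb 1.38-fold, Lif 1.302-fold and Osmr 1.28-fold. The other mutants also had lower regulators against WT in dexamethasone. In C2 4 of the 18 were lower and 0 higher: Nfkbiz, Il1r1, Lif and Il6ra. In C1-C2 2 were lower and 0 higher: Nfkbiz and Il6ra. Of all genes, 5.17% for C2 and 1.41% for C1-C2 were called in either direction. Wild-type NIPBL against EV in dexamethasone had 2 higher and 0 lower, against 2.36% and 1.84% of all genes. These were Il6ra, 1.24-fold, and Il6st, the shared signalling subunit, 1.16-fold. Cebpb and Cebpd were not called there, with log2 differences of 0.056 and -0.0058 (edgeR adjusted p = 0.858 and 0.987).

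Genes of iron, siderophore and haem handling, the pathway Lcn2 and Cp belong to, had 12 of 17 members tested. With dexamethasone in EV without IPTG 3 were higher and 4 lower, against 19.8% and 18.2% of all genes, among them the ferritin chains Fth1 (1.44-fold higher) and Ftl1 (1.26-fold higher), the transferrin receptor Tfrc (1.32-fold lower) and the haem oxygenase Hmox1 (1.52-fold lower). The knockdown had 1 higher and 5 lower in each treatment, against 7.16% and 6.24% of all genes in ethanol and 8.36% and 8.49% in dexamethasone. Bdh2, an enzyme reported to make a mammalian siderophore, was 1.80-fold higher in dexamethasone, while Tfrc was 1.35-fold and Fth1 1.32-fold lower. Of the other lipocalins on the list 2 of 17 were tested. Ptgds, a prostaglandin D synthase, rose 2.85-fold with dexamethasone in EV without IPTG, from 1.85 to 5.19 CPM.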

How the data were processed

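Counts per gene, whole numbers, were deposited by the authors for 24 libraries (12 groups of 2). Per the submitters' processing notes, reads were processed with bcl2fastq 2.20, cutadapt 1.18, STAR 2.7.0f and featureCounts with Subread 2.0.3, on mm10. The annotation release, strand setting and treatment of reads with several alignments are not given in the sources used here. All 55341 names are in GENCODE vM21, 55298 with the same coordinates, which supplied positions and 50-base comparisons. Promoter sequences came from RefSeq (GRCm38.p6).

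Counts were tested with edgeR 4.0.16 (quasi-likelihood, robust, TMM, filterByExpr) in R 4.3.3, with 12 group means and 12 residual degrees of freedom. The filter kept 16934 genes and removed 38407. P-values were adjusted with Benjamini-Hochberg per comparison over 27 comparisons, and a call needed an adjusted p under 0.05. Intervals are 95% and unadjusted. Alternatives were DESeq2 1.42.0, RLE factors, no filter, a filter of 1 CPM in 6 libraries, replicate blocks, GC and length trend removal, only the libraries compared, and each library left out.

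The members, lists and named genes were chosen with earlier results of these data known. Named genes were the members, up to 6 called genes per list with the largest change and a mean of at least 1 CPM, and the 5 genes most correlated with Lcn2. The lists were other acute phase genes, regulators, iron handling and other lipocalins, and marker lists of 6 cell types, of which milk genes had 3 of 4 under 1 CPM.

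The test was run on simulated counts, with 100 genes changed per fold size in a single group and no other differences between groups. The real dexamethasone and knockdown comparisons called far larger shares of genes, so these rates need not hold for them. For dexamethasone in EV without IPTG the calls held 77.8% of the changes of 2-fold and 94.9% of those of 4-fold among 16554 genes, with 5.06% of calls false. For the knockdown in ethanol they held 50% at 1.5-fold and 65.7% at 2-fold among 16568 genes, with 7.26% false. For C1 against WT in dexamethasone the values were 58.3%, 68.4% and 9.02% among 16599 genes, and for the difference of responses in EV 40.4%, 63.6% and 5.51% among 16561 genes.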

Additional observations from a re-analysis of the deposited data

How the results depend on the processing

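The serum amyloid genes and Hp had too few counts to test, and Lcn2 in ethanol rested on 13 to 49 counts per library. The dexamethasone count of called members was 4 in 59 and 5 in 13 of 72 settings, with Hp or Cp as the added member; leaving out 1 library gave 4 to 5. All 288 settings of Lcn2, Orm1, Orm2 and Orm3 responses stayed called and higher. In the other 21 comparisons at least 1 member was called in 25 of 272 settings. The shares of all genes called in the settings here and below are not given. No conclusion about the members is therefore drawn from these counts.

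With only the libraries compared, 1 member, Cp, was called in C1, C1-C2 and wild-type NIPBL comparisons (C1 against WT in dexamethasone, C1-C2 against EV in dexamethasone, C1-C2 against WT in both treatments, WT against EV in both treatments) and in the knockdown in dexamethasone, and 3 were called in the knockdown in ethanol. In the knockdown in ethanol 2 were called with DESeq2, with the GC and length trend removed and with a strict filter, and 1 without a filter. In C1 against WT in dexamethasone 1 was called with DESeq2 and 1 with a strict filter. Leaving out 1 library gave 0 to 1 in C1 against EV, C1-C2 against EV and the knockdown in dexamethasone, each time Orm3, without replicate 1 of EV with IPTG or, in the knockdown, also replicate 2 of EV without IPTG. The cause was not tested beyond the spread each setting uses.

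The main fits did not pair libraries by replicate number. Deviations between replicates correlated above 0.1 in 17 of 30 pairs of groups within a treatment (median r 0.159, range -0.317 to 0.454). Across treatments this held in 21 of 36 pairs (median r 0.156, range -0.188 to 0.547). Most pairs thus shared some replicate difference, and its source was not tested. With a replicate block, 2 members were called in the knockdown in ethanol, 1 in the knockdown in dexamethasone and 1, Lcn2 (adjusted p = 0.0498), in C1 against WT in dexamethasone. With the block within treatment the counts were 2, 1 and 1, and 1 in C1 against EV in dexamethasone. Orm2 and Orm3 were called in ethanol and Orm3 in the knockdown in dexamethasone under both blocks, and Orm3 in both C1 comparisons under the block within treatment.

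On leaving out 1 library, 8 uncalled log2 differences in dexamethasone changed sign, in 10 settings. Cp in C2 against EV ran from -0.76 to 0.056, above 0 without replicate 2 of C2. In the knockdown Lcn2 ran from -0.32 to 0.079, above 0 without replicate 1 of EV with IPTG. In the same comparison Orm1 ran from -0.10 to 0.33 and Orm2 from -0.19 to 0.26. Orm1 was below 0 without replicate 2 of EV with IPTG, and Orm2 without that library (-0.07) or replicate 1 of EV without IPTG. In WT against EV Lcn2 ran from -0.41 to 0.12, Orm1 from -0.42 to 0.0079, Orm2 from -0.34 to 0.14 and Orm3 from -0.34 to 0.13. Orm1 and Orm3 were above 0 without replicate 2 of EV with IPTG, Orm2 without replicate 1 of WT, and Lcn2 without either (0.09 and 0.12). The cause was not tested.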
